A study of Mus musculus with 14 samples.

Results

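Potassium channel genes were described in RNA of Nestin-GFP-positive cells from the mouse dentate gyrus, the region of the hippocampus where neurons are added in adult life. The genes were chosen by mouse symbols that begin with Kcn and further letters, in most followed by a number. Not every gene with such a symbol is described, and the counts and sums of a channel group cover the described genes alone. Of the 15119 genes listed, 57 with such a symbol are described here, and 41 further such symbols of the annotation used are not analysed here. Of the 57, 56 code for proteins: 26 pore subunits and 9 auxiliary subunits of voltage-gated channels, 7 inward rectifiers, 5 two-pore channels, and 9 subunits of calcium- and sodium-activated channels. The remaining one, Kcnq1ot1, is a noncoding RNA that carries the name of the channel gene it overlaps. Among the listed genes the choice was made by symbol and not by a measured value. The list itself, however, holds only genes read above a low level in some libraries.

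In the study, cells were sorted by reactive oxygen species (ROS), and RNA of each sorted fraction was sequenced in bulk, in 14 libraries. All cells came from untreated B6.Cg-Tg(Nes-EGFP)1Yamm mice, in which regulatory elements of the Nestin gene drive a green fluorescent protein, and all 3 groups are GFP-positive. The groups differ in the signal of dihydroethidium, a dye that becomes fluorescent when oxidised, and are called here ROS+ (5 libraries), ROS++ (5 libraries) and ROS+++ (4 libraries) in rising order. The labels give no age, sex, animal, batch or pairing, so p-values here reflect no more than how far libraries of a class lie apart, which may be technical. A Nestin transgene marks every cell type in which those elements are active, and bulk RNA does not separate them.

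Potassium channels let potassium ions leave or enter a cell along their gradient and so set the resting voltage of the membrane. Voltage-gated channels open when the membrane is depolarised and end action potentials. Inward rectifiers and two-pore channels carry the current at rest, calcium-activated channels couple internal calcium to voltage, and auxiliary subunits change the gating or the transport of the pores. Neurons are known for a wide set of voltage-gated subunits, glia for inward rectifiers and two-pore channels, and the contractile cells of vessel walls for calcium-activated channels with their own auxiliary subunit.

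Reads over the listed genes numbered 12704227 to 25313902 per library, and 3 reads, the most that a count of 0 allows at 95% confidence, were worth 0.119 to 0.236 CPM (a gene's reads scaled to the library total over the listed genes). Such limits cover counting error only. Nes, the gene behind the transgene, averaged 16.6 CPM across ROS+, 95.5 CPM across ROS++ and 227 CPM across ROS+++ libraries. The 18 radial glia-like stem cell markers summed to between 1189 and 1815 CPM among ROS+, between 6272 and 8823 CPM among ROS++ and between 3803 and 7169 CPM among ROS+++ libraries. Changes below are differences of log2(CPM + 1), given ± the standard error of the limma fit over all 15102 genes tested, and a gene is called where its Benjamini-Hochberg adjusted p is under 0.05. On this scale the change of a gene near 0 CPM is understated.

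Most potassium channel genes were lower in the cells with the most ROS signal. Between ROS+++ and ROS+, 6 of the 57 genes were higher and 40 lower, which is 80.7% called beside 59.2% of all genes tested. The median change of the 57 genes was -1.74, beside -0.44 for all genes. Of all genes, 19.2% were higher and 40.0% lower in that comparison. Between ROS++ and ROS+, 6 channel genes were higher and 9 lower, or 26.3% beside 29.6% of all genes (16.4% higher, 13.2% lower), so that the share called was near that of all genes. Between ROS+++ and ROS++, 4 channel genes were higher and 24 lower, or 49.1% beside 39.1% of all genes (9.89% higher, 29.2% lower). A test for any difference among the 3 classes (limma F-test) called 46 of the 57 genes, beside 61.5% of all genes. All 57 genes passed the filter on low values, but every listed gene already reaches 1 CPM in at least 3 libraries, so a gene could enter the list through 1 class alone.

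Library scaling bears on these counts. With 3 scalings other than the library total, the median change of all genes in ROS+++ against ROS+ moved up by 0.27 to 0.40, and the share of all called genes that were higher went to between 43.9% and 50.6%, against 32.5% with library totals. Of the channel genes called in that comparison, 14.3% were higher with each of the 3 scalings, against 13.0% with library totals, and 6 genes were higher and 36 lower in each. In ROS+++ against ROS++ the median change of all genes moved up by 0.25 to 0.37 with these scalings. The share of all called genes that were higher in that comparison went to between 42.4% and 52.2%, against 25.3% with library totals, and that of the called channel genes to between 18.5% and 21.4%, against 14.3%.

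**Figure D1:**
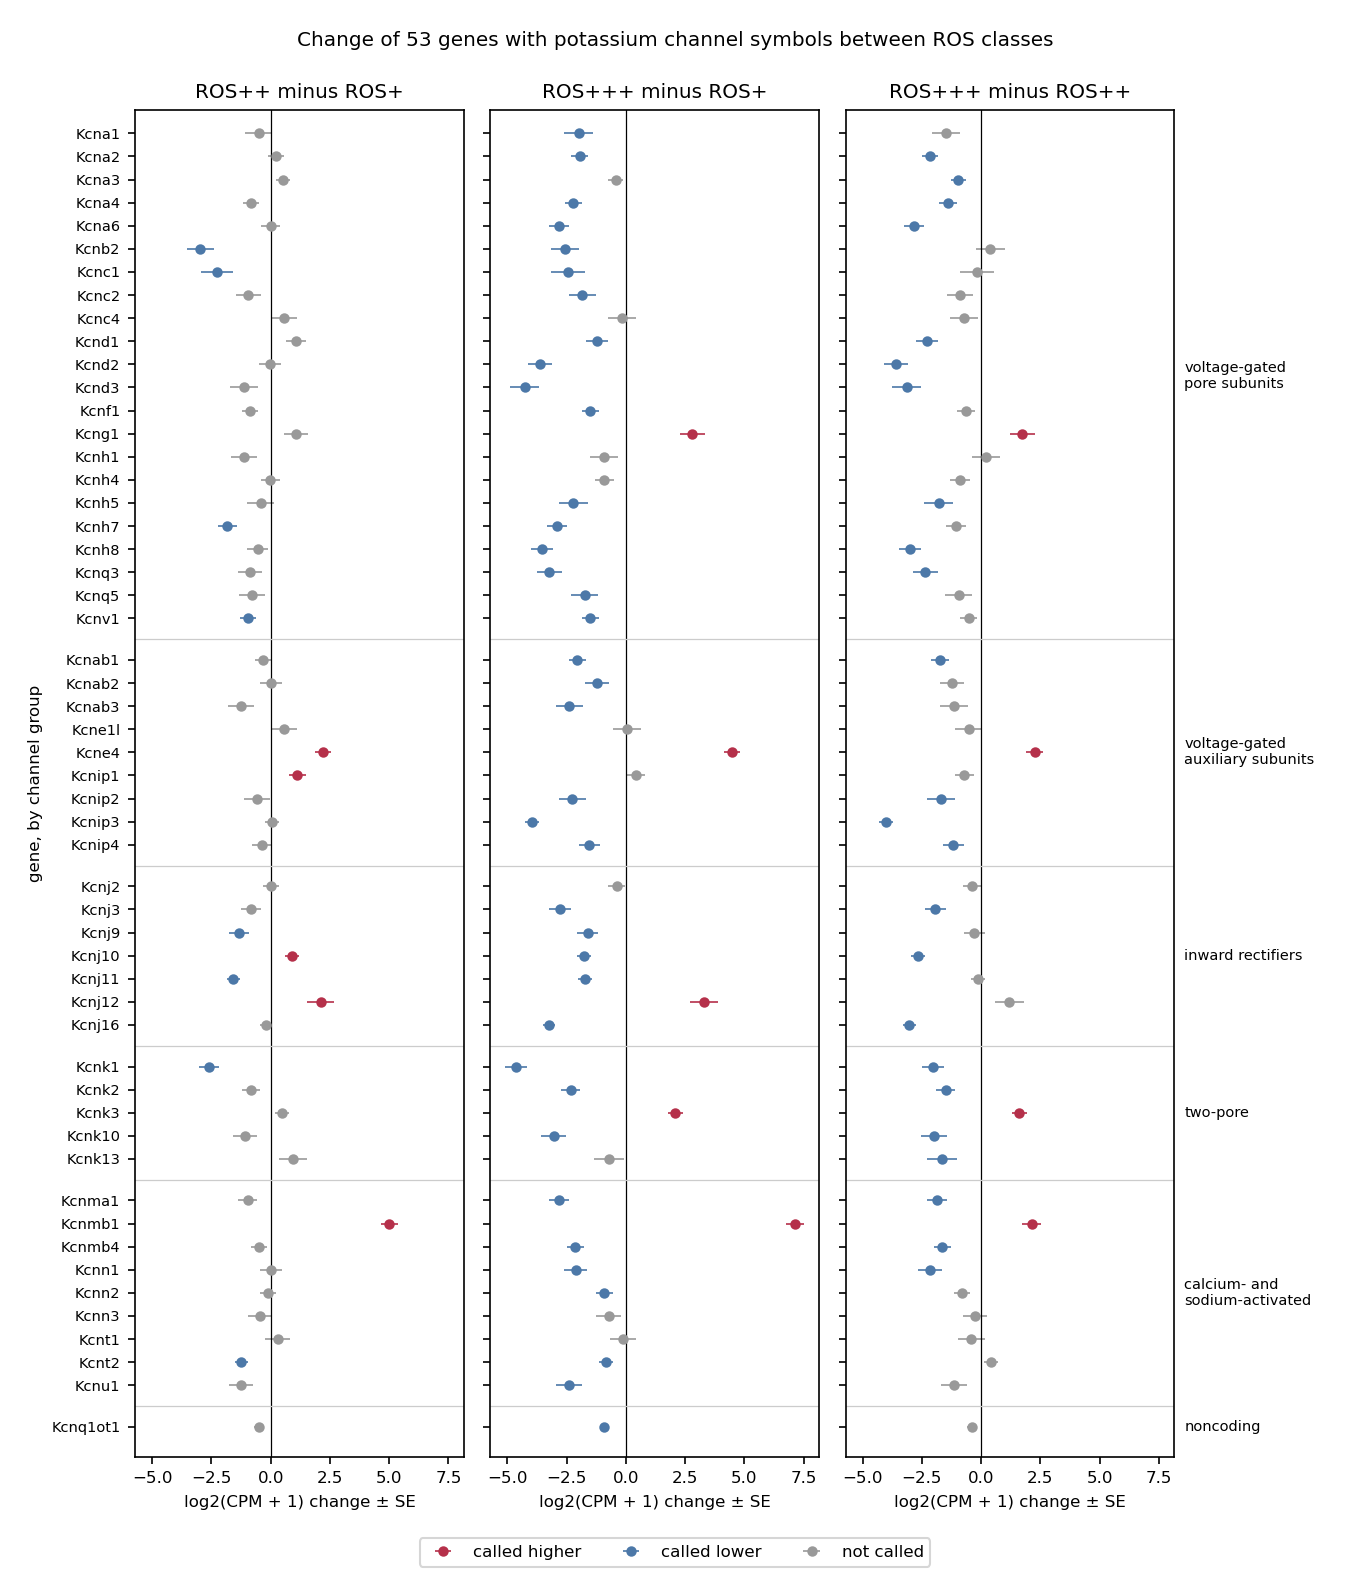
Change of 53 of the 57 genes in log2(CPM + 1), ± its standard error, with ROS++ minus ROS+ on the left, ROS+++ minus ROS+ in the middle, ROS+++ minus ROS++ on the right, and the genes in rows by channel group. Red points were called higher, blue points lower and grey points were not called; blue points prevail in the middle panel, where 38 of the genes shown were lower and 5 higher.

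The 46 genes with a difference fell into 3 main orders of their class means. In 30 of them ROS+ was highest and ROS+++ lowest, in 7 ROS++ was highest with ROS+++ lowest, and in 6 the order ran upwards with the ROS signal. The 6 rising genes included Kcnmb1, Kcne4, Kcnk3, Kcnj12 and Kcng1, and at least 1 came from each channel group. The 7 genes with their highest mean in ROS++ were Kcna2, Kcna3, Kcnd1, Kcnd2, Kcnip3, Kcnj10 and Kcnn1. Among these 7, Kcnj10 alone was called higher in ROS++ than in ROS+. Such an order ranks the means and does not require a call between each pair of classes. Kcnb2 and Kcnt2 had their highest mean in ROS+ with the lowest in ROS++, and Kcnip1 the reverse.

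Markers of many cell types also differed between the classes. The 18 markers of mural cells, which wrap small vessels, summed to between 226 and 797 CPM among ROS+, between 9109 and 26277 CPM among ROS++ and between 57519 and 67665 CPM among ROS+++ libraries, and all 18 rose in ROS+++ against ROS+. The 16 markers of neuronal commitment summed to between 13210 and 18997 CPM among ROS+, between 1265 and 2962 CPM among ROS++ and between 42.2 and 267 CPM among ROS+++ libraries, and all 16 fell in ROS+++ against ROS+. The 9 markers of oligodendrocyte precursors summed to between 2654 and 3938 CPM among ROS+, between 2503 and 4674 CPM among ROS++ and between 33.7 and 429 CPM among ROS+++ libraries; 0 of 9 was called between ROS++ and ROS+, and all 9 fell in ROS+++ against ROS++. Mural markers were not the only ones to rise in ROS+++ against ROS+. Called higher there were 6 of 12 endothelial, 6 of 8 leptomeningeal fibroblast, 18 of 18 microglia and macrophage and 9 of 9 immediate early genes. In each of these lists 0 were lower. Of 9 mature neuron markers, 0 were higher and 8 lower. None of these markers was at 0 in every library of a class. The part of these cell types in the changes of the channel genes was not tested, and in bulk samples fewer cells of a type and less RNA per cell cannot be told apart.

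The levels per length, in mean CPM per kilobase of exon, show which channel genes led each class. The length joins all annotated exons of a gene, so a gene whose transcripts hold few of them is understated. Kcnip3 led with 166 ± 40.7 in ROS+ libraries (SD, n = 5), followed by Kcnk1 with 44.6 ± 12.6, Kcnj16 with 29.1 ± 6.04 and Kcnj10 with 22.1 ± 3.81. Kcnip3 again led with 183 ± 81.0 in ROS++ libraries (SD, n = 5), followed by Kcnj10 with 41.4 ± 7.14, Kcnj16 with 26.7 ± 11.7, Kcne4 with 20.9 ± 7.80 and Kcnmb1 with 12.5 ± 5.93. Kcne4 led with 96.0 ± 12.8 in ROS+++ libraries (SD, n = 4), followed by Kcnmb1 with 51.4 ± 10.2, Kcnk3 with 13.8 ± 3.16, Kcnip3 with 10.6 ± 3.56 and Kcnj10 with 7.13 ± 3.53. In both ROS+ and ROS++ libraries the ranges of Kcnj16 and of Kcnj10 overlapped those of a neighbour in this order, whereas Kcnip3 lay above every other member in each library of both classes. In ROS+++ libraries Kcne4 lay above Kcnmb1 and Kcnmb1 above the rest without overlap, while Kcnk3 and Kcnip3 overlapped. The 2 leading members of the ROS+++ class were an auxiliary subunit of voltage-gated channels and one of the calcium-activated channel.

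**Figure D2:**
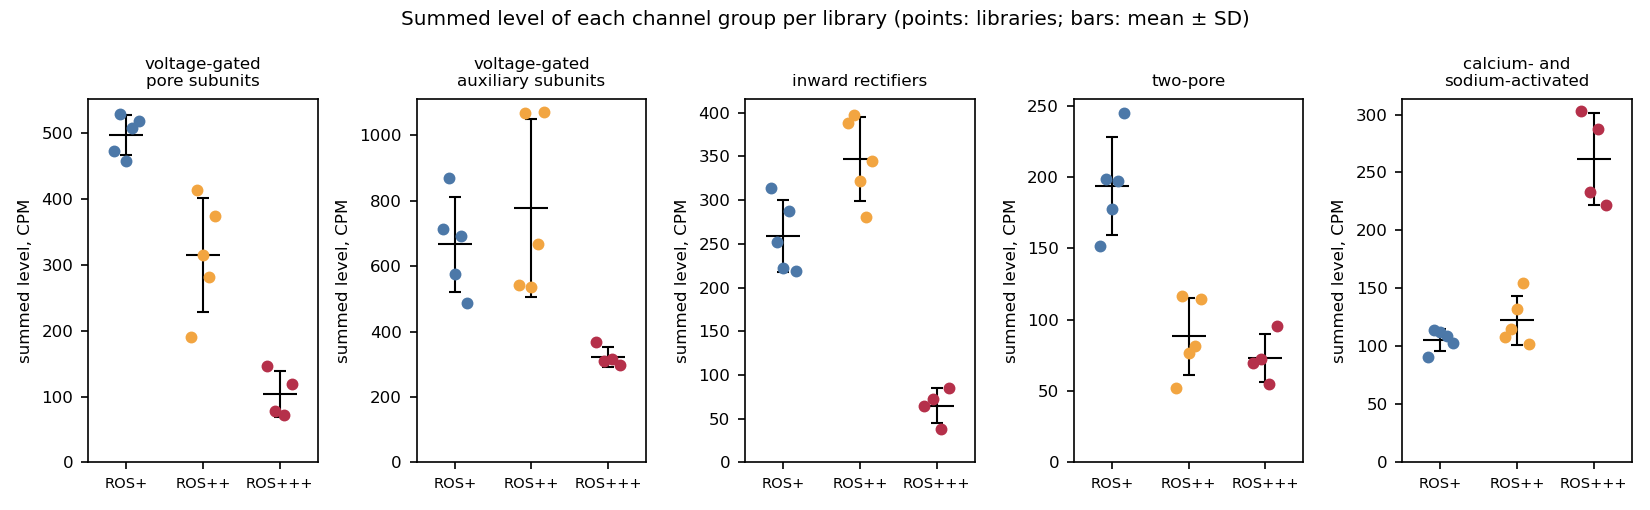
Summed CPM of the members of each channel group in every library (points), with the class mean ± SD (bars), for ROS+, ROS++ and ROS+++ from left to right. The calcium- and sodium-activated group is the 1 group whose ROS+++ libraries lie above those of both other classes, with sums of 222 to 303 CPM, of which Kcnmb1 made up 82.4% on average.

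Pore subunits of voltage-gated channels formed the largest group, and their summed level averaged 498 ± 30.8 CPM across ROS+ (SD, n = 5), 315 ± 86.3 CPM across ROS++ (SD, n = 5) and 104 ± 35.2 CPM across ROS+++ libraries (SD, n = 4). Of the 26, 2 were higher and 19 lower in ROS+++ against ROS+, with a median change of -1.89. In ROS++ against ROS+, 1 was higher and 5 were lower, and in ROS+++ against ROS++, 1 was higher and 10 were lower. Sums over genes weigh long transcripts more and are compared only between classes.

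Kcnq3, which forms pores of the M current that restrains repetitive firing of neurons, averaged 46.1 CPM across ROS+, 26.3 CPM across ROS++ and 6.77 CPM across ROS+++ libraries and fell by 3.23 ± 0.53 (adjusted p = 4.49e-05) in ROS+++ against ROS+. Kcnq5, a further neuronal member, averaged 7.67 CPM across ROS+, 4.5 CPM across ROS++ and 1.58 CPM across ROS+++ libraries and fell by 1.74 ± 0.58 (adjusted p = 0.0153) in ROS+++ against ROS+, a call lost without ROS+++ replicate 4 (adjusted p = 0.0512) and in limma-voom (0.0514).

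Kcnb2, a slow delayed rectifier, had 30.4, 39, 26.6, 26.6 and 23.8 CPM among ROS+, 2.04, 12.3, 2.17, 2.35 and 0.873 CPM among ROS++ and 16, 3.04, 0.429 and 5.35 CPM among ROS+++ libraries. The ROS+ libraries stood above all others, and ROS+++ replicate 1 and ROS++ replicate 2 were the highest of the rest. Kcnb2 fell by 2.97 ± 0.56 (adjusted p = 0.000608) in ROS++ and fell by 2.58 ± 0.60 (adjusted p = 0.00128) in ROS+++, both against ROS+. Kcng1 codes for a silent subunit, which conducts only when joined to a Kcnb pore. It had 0.0395, 0, 0, 3.24 and 0.281 CPM among ROS+, 1.47, 1.45, 1.96, 7.97 and 0.491 CPM among ROS++ and 9.36, 7.41, 16.6 and 5.27 CPM among ROS+++ libraries. ROS+ replicates 1, 2 and 3 were under the value of 3 reads, and all ROS+++ libraries lay above all ROS+ libraries. Kcng1 rose by 2.81 ± 0.53 (adjusted p = 0.000204) in ROS+++ against ROS+ and rose by 1.73 ± 0.53 (adjusted p = 0.0151) in ROS+++ against ROS++, and the second call was lost without ROS+++ replicate 3 (adjusted p = 0.0575) and on the deposited log2 scale (adjusted p = 0.121). The silent subunits Kcnf1 and Kcnv1 both averaged at most 2.45 CPM in every class and fell in ROS+++ against ROS+, by 1.51 ± 0.36 (adjusted p = 0.0017) and by 1.50 ± 0.37 (adjusted p = 0.00216).

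Kcnd2 and Kcnd3 form the fast, transient A-type current of dendrites. Kcnd2 had 66.1, 65.6, 42.2, 66.6 and 49.6 CPM among ROS+, 43.5, 80.9, 47.9, 36.3 and 84.5 CPM among ROS++ and 18, 2.55, 0.476 and 3.78 CPM among ROS+++ libraries. The ROS++ and ROS+ values overlapped, and all 4 ROS+++ libraries lay below both. Kcnd2 fell by 3.64 ± 0.50 (adjusted p = 7.01e-06) in ROS+++ against ROS+ and fell by 3.59 ± 0.50 (adjusted p = 2.36e-05) in ROS+++ against ROS++, with a difference of -0.04 ± 0.47 between ROS++ and ROS+ (adjusted p = 0.955). Kcnd3 had 65.9, 76.2, 79.7, 76.1 and 78.3 CPM among ROS+, 9.79, 68.7, 38.7, 30.2 and 52.9 CPM among ROS++ and 7.73, 0.393, 0.524 and 11.6 CPM among ROS+++ libraries. ROS++ replicate 1 was the lowest of its class and lay below the highest ROS+++ library. Kcnd3 fell by 4.28 ± 0.61 (adjusted p = 1.54e-05) in ROS+++ against ROS+ and fell by 3.15 ± 0.61 (adjusted p = 0.000649) in ROS+++ against ROS++. The third A-type member, Kcnd1, averaged 5.23 CPM across ROS+, 11.9 CPM across ROS++ and 2.02 CPM across ROS+++ libraries and fell by 2.29 ± 0.45 (adjusted p = 0.000632) in ROS+++ against ROS++.

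**Figure D3:**
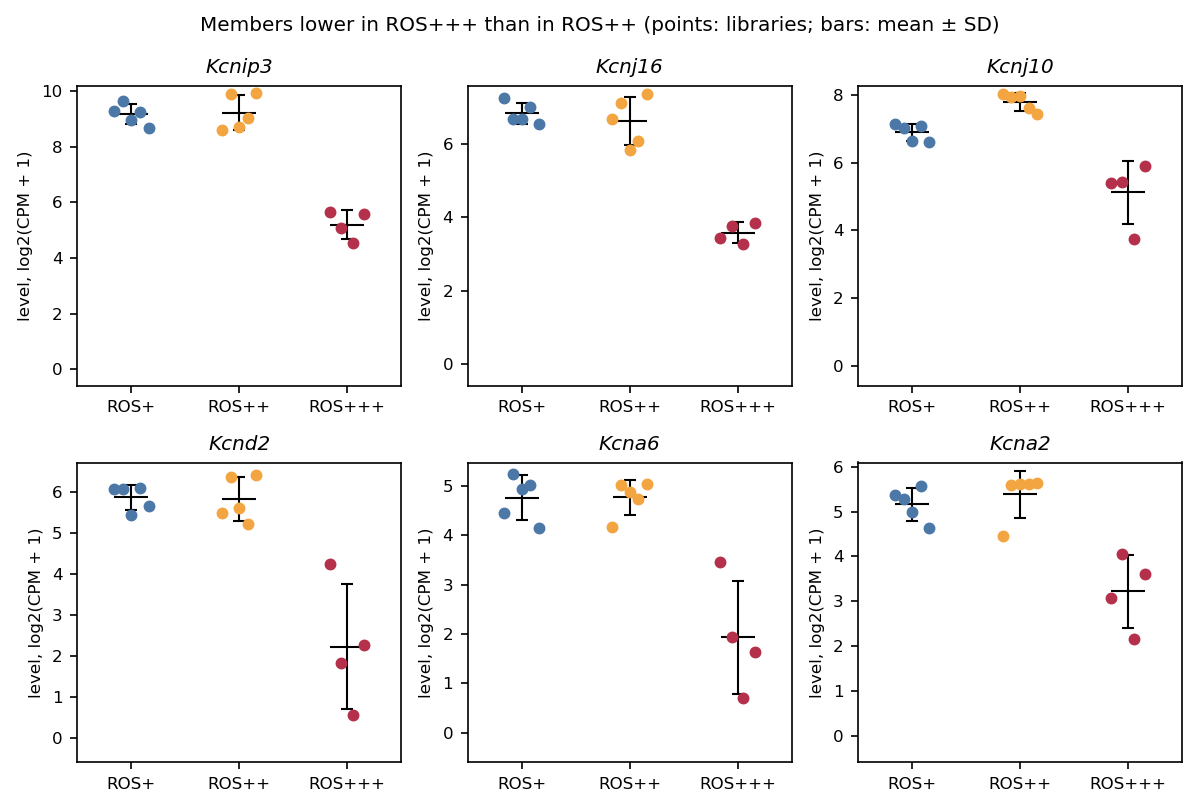
Levels in log2(CPM + 1) of Kcnip3, Kcnj16, Kcnj10, Kcnd2, Kcna6 and Kcna2 in every library (points), with the class mean ± SD (bars), for ROS+, ROS++ and ROS+++ from left to right. In each panel the 4 ROS+++ libraries lie below all ROS++ and all ROS+ libraries, with mean changes between -4.03 (Kcnip3) and -2.16 (Kcna2) against ROS++.

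The delayed rectifiers Kcna6 and Kcna2, which sit on axons, were likewise lowest in ROS+++. Kcna6 had 21, 37, 29.8, 31.6 and 16.7 CPM among ROS+, 16.9, 31.7, 28.4, 25.7 and 31.8 CPM among ROS++ and 9.98, 2.85, 0.619 and 2.13 CPM among ROS+++ libraries. The ROS++ and ROS+ libraries overlapped, and ROS+++ replicate 1, the highest of its class, was still below them. Kcna6 fell by 2.83 ± 0.43 (adjusted p = 2.03e-05) in ROS+++ against ROS+ and fell by 2.83 ± 0.43 (adjusted p = 5.31e-05) in ROS+++ against ROS++. Reads of Kcna6 are uncertain, since 39.6% of its exon bases overlap a gene on the other strand and the library steps described keep no strand. Kcna2 averaged 35.8 CPM across ROS+, 42.7 CPM across ROS++ and 9.41 CPM across ROS+++ libraries and fell by 2.16 ± 0.35 (adjusted p = 0.000119) in ROS+++ against ROS++. Of the other Kcna genes, Kcna1 and Kcna4 fell in ROS+++ against ROS+, by 1.99 ± 0.61 (adjusted p = 0.00956) and by 2.21 ± 0.37 (adjusted p = 6.19e-05), and Kcna3, at most 1.18 CPM on average, fell by 0.96 ± 0.30 (adjusted p = 0.0175) in ROS+++ against ROS++.

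Among the channels of the ether-a-go-go family, Kcnh7, a neuronal relative of the cardiac repolarising channel, had 52.8, 80.0, 68.5, 47 and 96.1 CPM among ROS+, 10.4, 19.9, 26.7, 19.5 and 17.5 CPM among ROS++ and 26.2, 3.34, 4.81 and 8.89 CPM among ROS+++ libraries. All ROS++ and ROS+++ libraries lay below all ROS+ libraries. Kcnh7 fell by 1.83 ± 0.40 (adjusted p = 0.00191) in ROS++ and fell by 2.90 ± 0.42 (adjusted p = 1.36e-05) in ROS+++, both against ROS+. Kcnh8, a slowly activating member, had 16.7, 32, 25.4, 18.4 and 23.1 CPM among ROS+, 5.87, 16.7, 20.7, 20.2 and 18.6 CPM among ROS++ and 1.62, 0.0982, 0.0952 and 4.33 CPM among ROS+++ libraries. ROS+++ libraries lay below both other classes, and ROS++ replicate 1 was well below the other ROS++ libraries. Kcnh8 fell by 3.54 ± 0.47 (adjusted p = 4.59e-06) in ROS+++ against ROS+ and fell by 3.00 ± 0.47 (adjusted p = 7.57e-05) in ROS+++ against ROS++. Kcnh5 averaged 4.62 CPM across ROS+, 4.54 CPM across ROS++ and 0.0881 CPM across ROS+++ libraries, the last below the value of 3 reads in all 4 libraries, and fell by 2.22 ± 0.61 (adjusted p = 0.00449) in ROS+++ against ROS+. Kcnh1 and Kcnh4, both at most 2.87 CPM on average in every class, were called in no comparison. The fast delayed rectifiers Kcnc1 and Kcnc2 fell in ROS+++ against ROS+, by 2.44 ± 0.71 (adjusted p = 0.00675) and by 1.84 ± 0.56 (adjusted p = 0.00934), and Kcnc4 was not called.

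**Figure D4:**
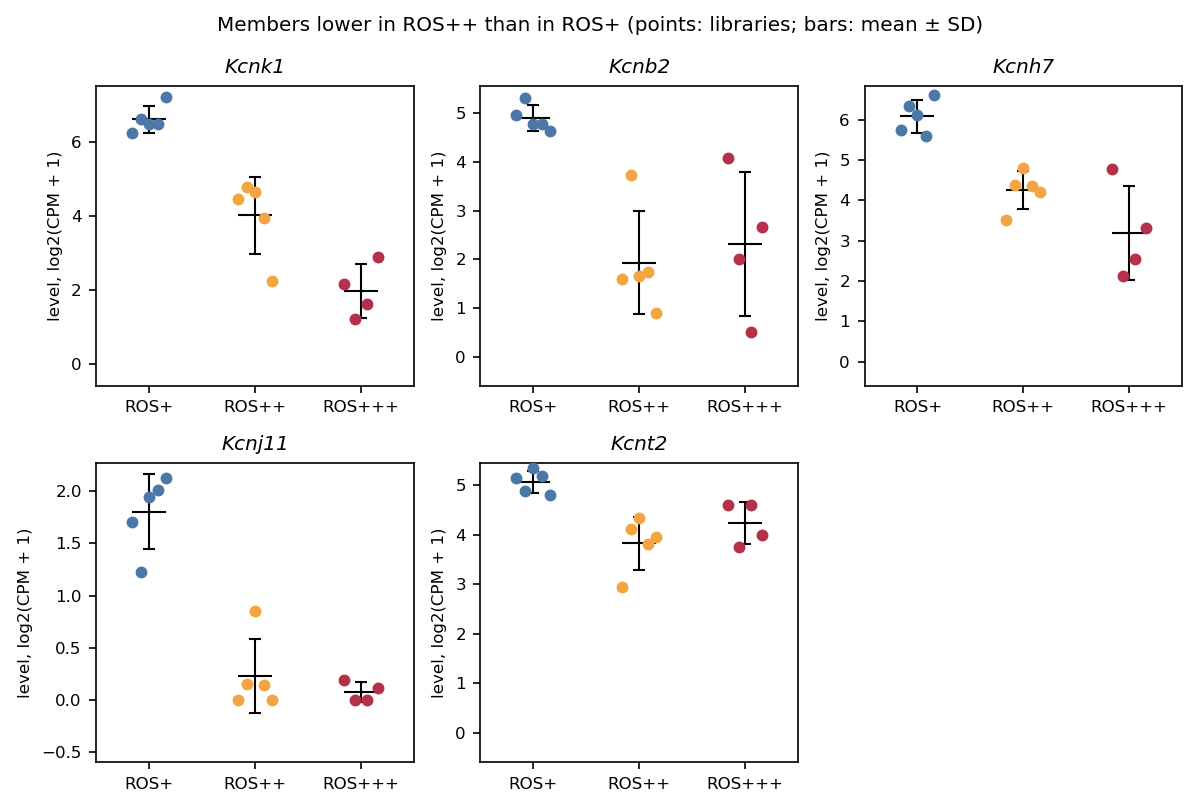
Levels in log2(CPM + 1) of Kcnk1, Kcnb2, Kcnh7, Kcnj11 and Kcnt2 in every library (points), with the class mean ± SD (bars), for ROS+, ROS++ and ROS+++ from left to right. In each panel the 5 ROS++ libraries lie below all 5 ROS+ libraries, with mean changes between -2.97 (Kcnb2) and -1.24 (Kcnt2).

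The 9 auxiliary subunits of voltage-gated channels were dominated by Kcnip3 and Kcne4. Kcnip3 made up 88.4% of their summed mean CPM among ROS+ and 83.5% in ROS++ libraries, and Kcne4 79.0% in ROS+++ libraries. Of the 9, 1 was higher and 6 were lower in ROS+++ against ROS+, 2 were higher and 0 lower in ROS++ against ROS+, and 1 was higher and 4 were lower in ROS+++ against ROS++.

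Kcnip3 codes for a calcium-binding protein that joins the A-type pores of the Kcnd genes and is also known as a repressor of transcription. It had 630.2, 794, 501, 613 and 412 CPM among ROS+, 391, 952, 418, 518 and 967 CPM among ROS++ and 48.9, 32.7, 22 and 46.8 CPM among ROS+++ libraries. The ROS++ libraries spread around those of ROS+, and the ROS+++ libraries lay far below both. Kcnip3 fell by 3.97 ± 0.30 (adjusted p = 2.06e-08) in ROS+++ against ROS+ and fell by 4.03 ± 0.30 (adjusted p = 1.66e-07) in ROS+++ against ROS++, with a difference of 0.06 ± 0.28 between ROS++ and ROS+ (adjusted p = 0.901). Of its relatives, Kcnip2 had 1.66, 7.49, 7.63, 6.18 and 6.71 CPM among ROS+, 2.46, 11.3, 4.78, 4.65 and 0.0546 CPM among ROS++ and 0.0955, 1.52, 0.0476 and 0.0787 CPM among ROS+++ libraries. A single ROS+++ library, replicate 2, was above the value of 3 reads. Kcnip2 fell by 2.27 ± 0.58 (adjusted p = 0.00262) in ROS+++ against ROS+, and its call between ROS+++ and ROS++ (adjusted p = 0.0266) was lost without ROS++ replicate 2, 3 or 4 or ROS+++ replicate 1, 3 or 4, at an adjusted p of up to 0.0742, and in limma-voom (0.118). Kcnip1 had 6.36, 12, 8.21, 13.8 and 4.55 CPM among ROS+, 27, 22.8, 17.4, 15.2 and 16.7 CPM among ROS++ and 20.9, 11.7, 4.76 and 14.1 CPM among ROS+++ libraries. All ROS++ libraries lay above all ROS+ libraries, and the ROS+++ libraries spanned both. Kcnip1 rose by 1.12 ± 0.36 (adjusted p = 0.0266) in ROS++ against ROS+, a call lost without ROS+ replicate 1, 3 or 5 or ROS++ replicate 1 or 2, with an adjusted p of up to 0.0795. Kcnip4 fell by 1.54 ± 0.44 (adjusted p = 0.00619) in ROS+++ against ROS+.

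Kcne4 codes for a small single-pass subunit that binds pores of the Kcnq and Kcna families. It had 18.3, 13.3, 13.1, 10.6 and 3.57 CPM among ROS+, 70.2, 38.4, 54.1, 81.9 and 33 CPM among ROS++ and 286, 234, 282 and 218 CPM among ROS+++ libraries. The 3 classes did not overlap. Kcne4 rose by 2.21 ± 0.32 (adjusted p = 4.56e-05) in ROS++ and rose by 4.46 ± 0.34 (adjusted p = 5.56e-09) in ROS+++, both against ROS+, and rose by 2.25 ± 0.34 (adjusted p = 5.6e-05) in ROS+++ against ROS++. Kcne1l, of the same family, averaged 6.87 CPM across ROS+, 13.3 CPM across ROS++ and 7.52 CPM across ROS+++ libraries and was not called. Of the cytoplasmic subunits that bind Kcna pores, Kcnab3 had 9.4, 13.8, 6.64, 4.22 and 8.07 CPM among ROS+, 9.48, 5.63, 1.66, 2.5 and 0.164 CPM among ROS++ and 0.0477, 0.0982, 0.524 and 3.78 CPM among ROS+++ libraries. The ROS++ libraries covered almost the whole range, while all ROS+++ libraries lay below all ROS+ libraries. Kcnab3 fell by 2.39 ± 0.59 (adjusted p = 0.002) in ROS+++ against ROS+, where Kcnab1 also fell by 2.05 ± 0.37 (adjusted p = 0.000114). The smaller change of Kcnab2 there (-1.23 ± 0.49, adjusted p = 0.0406) was no longer called with any of 3 other library scalings, at an adjusted p of up to 0.131, nor without ROS+ replicate 3, 4 or 5 or ROS+++ replicate 1, 2 or 3, at an adjusted p of up to 0.101.

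**Figure D5:**
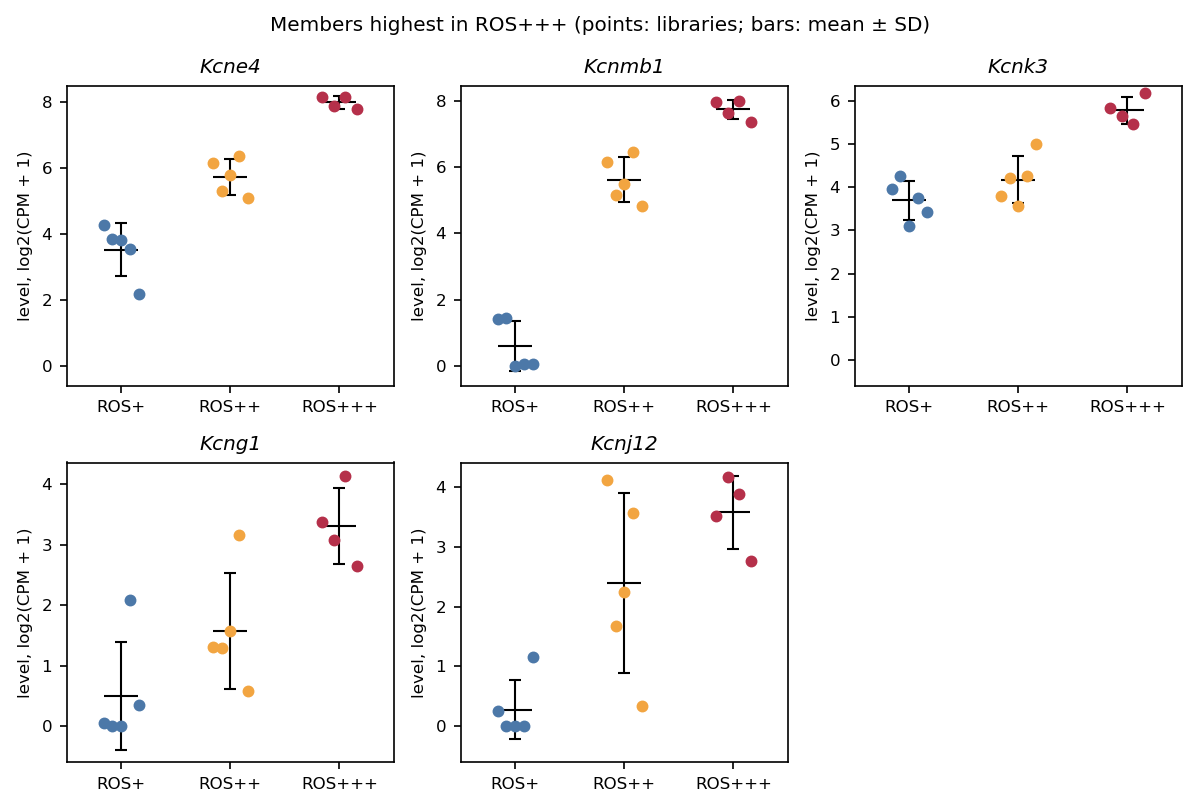
Levels in log2(CPM + 1) of 5 of the 6 genes whose class means rose with the ROS signal, Kcnmb1, Kcne4, Kcnk3, Kcnj12 and Kcng1, in every library (points), with the class mean ± SD (bars), for ROS+, ROS++ and ROS+++ from left to right. In each panel all ROS+++ libraries lie above all ROS+ libraries, with mean changes between 2.08 (Kcnk3) and 7.14 (Kcnmb1).

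The 7 inward rectifiers summed to 259 ± 41.4 CPM across ROS+ (SD, n = 5), 347 ± 48.2 CPM across ROS++ (SD, n = 5) and 64.7 ± 19.9 CPM across ROS+++ libraries (SD, n = 4), with Kcnj10 the leading member in each class. In ROS+++ against ROS+, 1 was higher and 5 were lower, in ROS++ against ROS+, 2 were higher and 2 lower, and in ROS+++ against ROS++, 0 was higher and 3 were lower. Kcnj10 is the channel by which astrocytes and oligodendrocyte lineage cells take up potassium. It had 140.2, 128, 98.6, 135 and 96.8 CPM among ROS+, 261, 243, 248, 194 and 172 CPM among ROS++ and 41.1, 42.2, 12.5 and 58.5 CPM among ROS+++ libraries. The 3 classes did not overlap, with ROS++ on top and ROS+++ at the bottom. Kcnj10 rose by 0.90 ± 0.29 (adjusted p = 0.0245) in ROS++ against ROS+, and fell by 1.78 ± 0.30 (adjusted p = 7.6e-05) in ROS+++ against ROS+ and fell by 2.67 ± 0.30 (adjusted p = 3.26e-06) in ROS+++ against ROS++. The rise in ROS++ was not called without ROS++ replicate 1 or 3 or ROS+ replicate 3 or 5, with an adjusted p of up to 0.062. Kcnj16, which conducts poorly alone and joins Kcnj10, had 150.5, 102, 101, 126 and 92.8 CPM among ROS+, 101, 137, 56.2, 67.1 and 165 CPM among ROS++ and 9.88, 12.7, 8.57 and 13.4 CPM among ROS+++ libraries. Its ROS++ libraries overlapped those of ROS+, and the ROS+++ libraries lay below both. Kcnj16 fell by 3.25 ± 0.27 (adjusted p = 1.74e-08) in ROS+++ against ROS+ and fell by 3.04 ± 0.27 (adjusted p = 2.64e-07) in ROS+++ against ROS++.

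The 13 mature astrocyte markers summed to between 663 and 1047 CPM among ROS+, between 2024 and 2776 CPM among ROS++ and between 890 and 2950 CPM among ROS+++ libraries. In ROS++ against ROS+, 11 of them rose and 0 fell, and in ROS+++ against ROS++, 0 rose and 3 fell. In ROS+++ against ROS+, 11 of them rose and 1 fell, whereas Kcnj10 and Kcnj16 both fell there. The 9 markers of myelinating oligodendrocytes summed to between 1965 and 5462 CPM among ROS+, between 1978 and 10519 CPM among ROS++ and between 496 and 656 CPM among ROS+++ libraries. Of these 9, 4 rose and 0 fell in ROS++ against ROS+, 1 rose and 4 fell in ROS+++ against ROS+, and 0 rose and 8 fell in ROS+++ against ROS++. The part of astrocytes or of oligodendrocytes in the levels of either gene was not tested.

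Kcnj12, a strong inward rectifier of muscle and vessels, had 0.198, 0, 0, 0 and 1.22 CPM among ROS+, 16.3, 2.2, 3.71, 10.7 and 0.273 CPM among ROS++ and 10.4, 16.9, 13.6 and 5.75 CPM among ROS+++ libraries. It was not read in 3 ROS+ libraries, and the ROS++ libraries ranged from within the ROS+ values to within the ROS+++ values. Kcnj12 rose by 2.10 ± 0.57 (adjusted p = 0.00894) in ROS++ and rose by 3.29 ± 0.60 (adjusted p = 0.000148) in ROS+++, both against ROS+. Its relative Kcnj2 stayed at 0.72 to 1.18 CPM on average and was not called. Kcnj3, the pore of the channels opened by G proteins, had 18.1, 11.9, 16.1, 17.6 and 23.2 CPM among ROS+, 8.07, 11.5, 10.4, 7.46 and 8.29 CPM among ROS++ and 0.334, 0.245, 2.9 and 6.22 CPM among ROS+++ libraries. The classes did not overlap, although the difference of -0.85 ± 0.42 between ROS++ and ROS+ was not called (adjusted p = 0.148). Kcnj3 fell by 2.78 ± 0.45 (adjusted p = 4.28e-05) in ROS+++ against ROS+ and fell by 1.94 ± 0.45 (adjusted p = 0.00234) in ROS+++ against ROS++. Reads of Kcnj3 are uncertain, since 31.1% of its exon bases overlap the listed gene Gm26794 on the other strand. Kcnj9, of the same G protein family, fell by 1.33 ± 0.41 (adjusted p = 0.0207) in ROS++ against ROS+, a call lost without ROS+ replicate 2 (adjusted p = 0.0618), and fell by 1.61 ± 0.44 (adjusted p = 0.00412) in ROS+++ against ROS+.

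Kcnj11 is the pore of channels that ATP closes, and its pore works only with a sulfonylurea receptor. It had 2.25, 1.34, 2.85, 3.03 and 3.38 CPM among ROS+, 0, 0.107, 0.81, 0.102 and 0 CPM among ROS++ and 0.143, 0, 0 and 0.0787 CPM among ROS+++ libraries. All ROS++ libraries but replicate 3, and all ROS+++ libraries, were at or under the value of 3 reads. Kcnj11 fell by 1.57 ± 0.28 (adjusted p = 0.000324) in ROS++ and fell by 1.73 ± 0.30 (adjusted p = 7.53e-05) in ROS+++, both against ROS+. Of the 2 receptor genes, Abcc8, known from neurons and beta cells, averaged 23.0 ± 6.41 CPM across ROS+ (SD, n = 5), 1.82 ± 1.82 CPM across ROS++ (SD, n = 5) and 0.162 ± 0.161 CPM across ROS+++ libraries (SD, n = 4). Abcc8 fell by 3.33 ± 0.43 (adjusted p = 1.17e-05) in ROS++ and fell by 4.34 ± 0.46 (adjusted p = 2.92e-07) in ROS+++, both against ROS+. Abcc9, known from muscle and pericytes, averaged 2.20 ± 1.63 CPM across ROS+ (SD, n = 5), 297 ± 166 CPM across ROS++ (SD, n = 5) and 1040.1 ± 137 CPM across ROS+++ libraries (SD, n = 4). Abcc9 rose by 6.49 ± 0.34 (adjusted p = 8.51e-10) in ROS++ and rose by 8.47 ± 0.37 (adjusted p = 1.46e-11) in ROS+++, both against ROS+, and rose by 1.97 ± 0.37 (adjusted p = 0.000413) in ROS+++ against ROS++. The pair of receptor genes therefore ran in opposite directions across the classes. The part of any cell type in these changes was not tested.

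The 5 two-pore channel genes summed to 194 ± 34.3 CPM across ROS+ (SD, n = 5), 88.4 ± 27.1 CPM across ROS++ (SD, n = 5) and 73.0 ± 16.8 CPM across ROS+++ libraries (SD, n = 4). The leading member was Kcnk1 in ROS+ with 51.4% of the sum, Kcnk2 in ROS++ with 43.1% and Kcnk3 in ROS+++ with 75.2%. Of the 5, 1 was higher and 3 were lower in ROS+++ against ROS+, 0 was higher and 1 was lower in ROS++ against ROS+, and 1 was higher and 4 were lower in ROS+++ against ROS++.

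Kcnk1, a weak inwardly rectifying leak channel, had 75.2, 97.9, 88.2, 89.3 and 148 CPM among ROS+, 20.9, 26.7, 24.3, 14.3 and 3.71 CPM among ROS++ and 3.48, 1.33, 2.05 and 6.45 CPM among ROS+++ libraries. All ROS++ and ROS+++ libraries lay below all ROS+ libraries, and ROS++ replicate 5 fell within the ROS+++ range. Kcnk1 fell by 2.60 ± 0.43 (adjusted p = 0.00016) in ROS++ and fell by 4.64 ± 0.45 (adjusted p = 1.16e-07) in ROS+++, both against ROS+, and fell by 2.04 ± 0.45 (adjusted p = 0.00162) in ROS+++ against ROS++. Kcnk3, an acid-sensitive leak channel, had 14.5, 18.2, 7.54, 12.4 and 9.71 CPM among ROS+, 12.9, 17.5, 10.9, 18.1 and 31.1 CPM among ROS++ and 56.3, 48.7, 42.8 and 71.8 CPM among ROS+++ libraries. The ROS++ and ROS+ libraries overlapped, and all ROS+++ libraries lay above both. Kcnk3 rose by 2.08 ± 0.31 (adjusted p = 1.78e-05) in ROS+++ against ROS+ and rose by 1.61 ± 0.31 (adjusted p = 0.000521) in ROS+++ against ROS++.

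Kcnk2 and Kcnk10 are leak channels opened by stretch and by fatty acids. Kcnk2 had 35.2, 71.6, 55.9, 74.6 and 61.5 CPM among ROS+, 9.95, 49.3, 27.2, 35.4 and 68.5 CPM among ROS++ and 7.78, 16.5, 9.43 and 10.7 CPM among ROS+++ libraries. ROS++ ranged from within the ROS+++ values to within the ROS+ values. Kcnk2 fell by 2.33 ± 0.41 (adjusted p = 9.41e-05) in ROS+++ against ROS+ and fell by 1.50 ± 0.41 (adjusted p = 0.0071) in ROS+++ against ROS++, where limma-voom did not call it (adjusted p = 0.0531). Kcnk10 had 22, 8.74, 25.7, 20.0 and 19.9 CPM among ROS+, 4.03, 16, 7.93, 12.6 and 5.07 CPM among ROS++ and 2.29, 0.0982, 0.0952 and 6.22 CPM among ROS+++ libraries. ROS+++ replicates 2 and 3 were under the value of 3 reads. Kcnk10 fell by 3.06 ± 0.54 (adjusted p = 0.000111) in ROS+++ against ROS+ and fell by 1.98 ± 0.54 (adjusted p = 0.00748) in ROS+++ against ROS++. Kcnk13, known from microglia, averaged 2.73 CPM across ROS+, 5.11 CPM across ROS++ and 1.48 CPM across ROS+++ libraries, and its call between ROS+++ and ROS++ (-1.67 ± 0.63, adjusted p = 0.0447) was lost in 13 of the 24 alternatives, among them those without ROS+ replicate 2, ROS++ replicate 1, 2, 3 or 5 or ROS+++ replicate 1, 3 or 4, at an adjusted p of up to 0.119. The 18 listed markers of microglia and macrophages summed to between 30.5 and 40.2 CPM among ROS+, between 1130.0 and 2729 CPM among ROS++ and between 882 and 3457 CPM among ROS+++ libraries, and their part in the level of Kcnk13 was not tested.

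The channel of large conductance that calcium and voltage open together is built from the pore Kcnma1 and auxiliary subunits, of which Kcnmb1 is known from smooth muscle and Kcnmb4 from neurons. Here Kcnma1 and Kcnmb4 both fell in ROS+++ against each other class, while Kcnmb1 rose. Kcnmb1 had 1.7, 1.73, 0, 0.0426 and 0.0469 CPM among ROS+, 69.6, 34.4, 44.3, 86.3 and 27.2 CPM among ROS++ and 249.6, 196, 252 and 164 CPM among ROS+++ libraries. The 3 classes did not overlap, and ROS+ replicates 3, 4 and 5 were under the value of 3 reads. Kcnmb1 rose by 5.01 ± 0.37 (adjusted p = 1.59e-08) in ROS++ and rose by 7.14 ± 0.39 (adjusted p = 8.79e-11) in ROS+++, both against ROS+, and rose by 2.13 ± 0.39 (adjusted p = 0.000323) in ROS+++ against ROS++, where the call was lost on the deposited log2 scale (adjusted p = 0.0782). In limma-voom, which weights values by depth, the change in ROS++ against ROS+ was 7.91 ± 1.39.

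Kcnma1 had 8.3, 12.6, 15.3, 14 and 9.95 CPM among ROS+, 5.5, 12.2, 4.99, 1.99 and 6.6 CPM among ROS++ and 0.668, 2.06, 0.238 and 0.63 CPM among ROS+++ libraries. All ROS+++ libraries lay below all ROS+ libraries, and replicate 2, the highest of them, lay just within the range of ROS++. Kcnma1 fell by 2.83 ± 0.42 (adjusted p = 1.56e-05) in ROS+++ against ROS+ and fell by 1.86 ± 0.42 (adjusted p = 0.00176) in ROS+++ against ROS++. Kcnmb4 had 4.58, 10.9, 7, 7.55 and 10.1 CPM among ROS+, 4.56, 8.91, 5.8, 3.02 and 5.07 CPM among ROS++ and 1.86, 0.54, 0.619 and 1.18 CPM among ROS+++ libraries. The ROS++ and ROS+ libraries overlapped, and the ROS+++ libraries lay below both. Kcnmb4 fell by 2.14 ± 0.37 (adjusted p = 8.48e-05) in ROS+++ against ROS+ and fell by 1.64 ± 0.37 (adjusted p = 0.00182) in ROS+++ against ROS++, with 31.5% of its exon bases overlapped by genes on the other strand. Per kilobase of exon, Kcnmb1 averaged 51.4 CPM across ROS+++ libraries, where Kcnma1 averaged 0.053 and Kcnmb4 0.316. These values depend on the joined annotated exons, 16976 bases for Kcnma1, 4191 for Kcnmb1 and 3324 for Kcnmb4. Without division by length, Kcnmb1 averaged 216 CPM, Kcnma1 0.899 CPM and Kcnmb4 1.05 CPM across ROS+++ libraries.

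The promoter windows of these 3 genes are printed because the genes share a channel, while Kcnmb1 changed in the direction opposite to Kcnma1 and Kcnmb4. Each runs from 250 bases before to 50 bases after the annotated start, is taken from RefSeq on GRCm38.p6 and reads 5′ to 3′ along the gene's strand. Capitals mark the dinucleotide CG, which reads the same on both strands and is often methylated in vertebrate DNA. The windows lie at chr11:33962763-33963062 (plus strand) for Kcnmb1, chr14:24004156-24004455 (minus strand) for Kcnma1 and chr10:116473474-116473773 (minus strand) for Kcnmb4. The gene models used here for lengths start at 33963013 for Kcnmb1, inside its window. They start at 24014491 for Kcnma1 and 116473878 for Kcnmb4, outside the windows, so the numbers below hold for the RefSeq starts alone.
Kcnmb1: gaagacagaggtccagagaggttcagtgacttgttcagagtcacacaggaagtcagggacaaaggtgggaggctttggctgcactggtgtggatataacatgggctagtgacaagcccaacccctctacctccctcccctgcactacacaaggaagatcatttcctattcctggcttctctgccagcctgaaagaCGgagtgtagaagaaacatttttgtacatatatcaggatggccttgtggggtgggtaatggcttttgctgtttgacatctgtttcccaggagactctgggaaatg
Kcnma1: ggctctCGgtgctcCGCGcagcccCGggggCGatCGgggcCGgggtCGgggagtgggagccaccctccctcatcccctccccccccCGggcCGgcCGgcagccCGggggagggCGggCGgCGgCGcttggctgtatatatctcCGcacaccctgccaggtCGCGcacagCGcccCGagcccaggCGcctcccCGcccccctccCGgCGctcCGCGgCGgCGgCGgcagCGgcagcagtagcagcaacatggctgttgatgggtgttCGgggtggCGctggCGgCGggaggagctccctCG
Kcnmb4: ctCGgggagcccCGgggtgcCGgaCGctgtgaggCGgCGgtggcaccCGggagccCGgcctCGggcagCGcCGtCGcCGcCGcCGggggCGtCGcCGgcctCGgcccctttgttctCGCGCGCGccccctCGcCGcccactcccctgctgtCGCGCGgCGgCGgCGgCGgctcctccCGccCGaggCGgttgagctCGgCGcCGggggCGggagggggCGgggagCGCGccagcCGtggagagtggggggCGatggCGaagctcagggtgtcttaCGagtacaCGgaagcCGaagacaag
The Kcnmb1 window holds 1 CG and is 49.7% G and C, and 14.1% of the 32851 windows of the table hold as few. The Kcnma1 window holds 36 CG at 78% G and C, a number reached by 6.23% of the windows, and the Kcnmb4 window holds 48 at 79%, reached by 1.22%. The median window holds 7. Of the 57 genes, 41 have a window in the table, and no methylation was measured.

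The small-conductance channels, which calcium opens through calmodulin, have 3 pore genes here, and the F-test called 1 of them, Kcnn1. Kcnn1 averaged 3.98 CPM across ROS+, 5.14 CPM across ROS++ and 0.117 CPM across ROS+++ libraries and fell by 2.13 ± 0.49 (adjusted p = 0.00128) in ROS+++ against ROS+ and fell by 2.16 ± 0.49 (adjusted p = 0.00209) in ROS+++ against ROS++. Kcnn2 averaged 27.7 CPM across ROS+, 26.4 CPM across ROS++ and 16.4 CPM across ROS+++ libraries, and its call in ROS+++ against ROS+ (-0.91 ± 0.35, adjusted p = 0.0342) was lost with each of 3 other library scalings, at an adjusted p of up to 0.236. It was also lost without ROS+ replicate 2 or 5 or ROS+++ replicate 1 or 3, and without the last the change was -0.55 ± 0.32 (adjusted p = 0.155). Kcnn3 averaged 6.42 CPM across ROS+, 4.53 CPM across ROS++ and 3.14 CPM across ROS+++ libraries and was not called. Of the sodium-activated channels, Kcnt2 had 34.4, 28.4, 39.5, 35.4 and 26.8 CPM among ROS+, 6.65, 16.3, 19.1, 13 and 14.5 CPM among ROS++ and 23.2, 12.5, 23.2 and 15 CPM among ROS+++ libraries. All ROS++ and ROS+++ libraries lay below all ROS+ libraries. Kcnt2 fell by 1.24 ± 0.28 (adjusted p = 0.00243) in ROS++ against ROS+, and its change of -0.83 ± 0.30 in ROS+++ against ROS+ (adjusted p = 0.0223) shrank to between -0.55 and -0.41 with 3 other library scalings, where it was not called, nor was it without ROS+ replicate 3 (adjusted p = 0.054) or ROS+++ replicate 2 (0.0799) or 4 (0.0561). Kcnt1 averaged 3.13 CPM across ROS+, 3.96 CPM across ROS++ and 4.09 CPM across ROS+++ libraries and was not called.

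Kcnu1, the pore known from the potassium current of sperm, had 7.03, 15.9, 12.1, 8.61 and 10.2 CPM among ROS+, 0.314, 5.47, 5.2, 5.32 and 6.71 CPM among ROS++ and 3.58, 0.0982, 2.86 and 0.157 CPM among ROS+++ libraries. The ROS++ and ROS+++ libraries all lay below the ROS+ libraries, and ROS++ replicate 1 was far below the rest of its class. The difference of -1.245 ± 0.519 between ROS++ and ROS+ was not called (adjusted p = 0.0808). Kcnu1 fell by 2.39 ± 0.55 (adjusted p = 0.00122) in ROS+++ against ROS+. Over the whole calcium- and sodium-activated group of 9, 1 was higher and 6 were lower in ROS+++ against ROS+, 1 was higher and 1 lower in ROS++ against ROS+, and 1 was higher and 3 were lower in ROS+++ against ROS++. Its summed level averaged 106 ± 9.49 CPM across ROS+ (SD, n = 5), 123 ± 21.2 CPM across ROS++ (SD, n = 5) and 262 ± 39.7 CPM across ROS+++ libraries (SD, n = 4), with Kcnmb1 at 82.4% of the last on average.

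Kcnq1ot1, a noncoding RNA transcribed against Kcnq1 that silences neighbouring genes on the paternal chromosome, had 180.0, 198, 221, 274 and 278 CPM among ROS+, 112, 180.4, 229, 173 and 131 CPM among ROS++ and 167, 115, 114 and 96.3 CPM among ROS+++ libraries. All ROS+++ libraries lay below all ROS+ libraries. Kcnq1ot1 fell by 0.91 ± 0.20 (adjusted p = 0.000931) in ROS+++ against ROS+, and its change was -0.53 with TMM factors and -0.47 with relative log expression factors, both still called.

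Read by whether the libraries of 2 classes overlap, ROS+++ lay wholly above ROS+ for 6 of the 57 genes and wholly below for 34, which is 70.2% beside 50.0% of all genes (16.8% above, 33.2% below). ROS++ lay wholly above ROS+ for 5 and below for 8, or 22.8% beside 23.0% of all genes (12.1% above, 10.9% below). ROS+++ lay wholly above ROS++ for 3 and below for 12, or 26.3% beside 27.0% of all genes (7.48% above, 19.5% below). In the last 2 of these comparisons the share of channel genes was near that of all genes.

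Partner subunits outside the Kcn symbols were read from a list of 9, of which 6 are listed. Besides Abcc8 and Abcc9, Dpp6 and Dpp10, which speed the A-type current of Kcnd pores, fell in ROS+++ against both other classes. Dpp6 averaged 183 ± 30.5 CPM across ROS+ (SD, n = 5), 138 ± 52.3 CPM across ROS++ (SD, n = 5) and 9.26 ± 9.72 CPM across ROS+++ libraries (SD, n = 4). It fell by 4.90 ± 0.62 (adjusted p = 1.24e-05) in ROS+++ against ROS+ and fell by 4.44 ± 0.62 (adjusted p = 7.97e-05) in ROS+++ against ROS++. Dpp10 fell by 3.69 ± 0.43 (adjusted p = 1.14e-06) in ROS+++ against ROS+ and fell by 3.49 ± 0.43 (adjusted p = 7.87e-06) in ROS+++ against ROS++. Over the 6 genes, 1 was higher and 3 were lower in ROS+++ against ROS+, 1 was higher and 1 lower in ROS++ against ROS+, and 1 was higher and 2 were lower in ROS+++ against ROS++.

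Of 5 listed genes for other cation channels that pass potassium, Tmem38b, a channel of the endoplasmic reticulum, rose by 0.94 ± 0.24 (adjusted p = 0.00301) in ROS+++ against ROS+, while its relative Tmem38a fell by 0.68 ± 0.21 (adjusted p = 0.0176) in ROS+++ against ROS++. The lysosomal channel Tmem175 fell by 0.56 ± 0.16 (adjusted p = 0.00506) in ROS+++ against ROS+ and fell by 0.57 ± 0.16 (adjusted p = 0.00704) in ROS+++ against ROS++. Over the 5 genes, 1 was higher and 3 were lower in ROS+++ against ROS+, 0 was higher and 1 was lower in ROS++ against ROS+, and 0 was higher and 2 were lower in ROS+++ against ROS++.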

How the data were processed

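RNA of 14 sorted cell samples was measured with poly-dT primed, template-switched and amplified cDNA, made into libraries without molecular identifiers or a record of the strand, per the labels' protocols. The authors deposited a single table, called counts by its name, whose values are log2 CPM with a small prior. STAR, edgeR and mm10 were used, per the submitters' processing notes. Not given in the sources used here are versions, the read counter and the gene models behind the table. The deposited log2 values share 1 lowest value, -4.36, and above it each is a whole number of reads, so reads were recovered and scaled to library totals to give CPM. No 2 replicates were 1 library read again, since counts in the 26 pairs differed by 33.7 to 161 times the sampling variance (chi-square per degree of freedom).

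The plan foresaw counts and, for normalized values, limma-trend, which was used because the unit is log2. Values were log2(CPM + 1), for the 15102 genes that reach 1 CPM in 4 or more libraries, 57 of them potassium channel genes. All 14 libraries entered 1 model with a mean per class, with trend and robust settings (limma 3.58.1, statmod 1.5.0, R 4.3.3), and p-values were adjusted over all genes tested after Benjamini and Hochberg. Channel groups were assigned here from the gene symbols, and the symbols of listed genes came from a reference list of gene names. Lengths, strands, overlaps and the symbols of genes not listed came from GENCODE M21, and promoters from RefSeq. The members, the marker and partner lists and the tests were chosen with earlier results of these data known, so no test over a list was made. Values in every library are given for the 3 called members with the largest change per channel group, comparison and direction, among those whose libraries did not overlap, and for the leading member of each group, except that a few genes of these lists are counted but not reported here by name. Of the partner genes, the 2 largest called changes per list, direction and comparison are named. Replicates were numbered in the order of the samples. The 24 alternatives were another pseudocount (0.5 CPM), the deposited log2 scale, no filter, a filter of 5 CPM, 3 other library scalings, limma-voom, fits of 2 classes, a block of library sets, and leaving out each of the 14 libraries.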

Additional observations from a re-analysis of the deposited data

Results flagged for a closer look

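In 9 of 87 groups of libraries (10.3%), 1 library of a named gene stood apart from the rest of its class by Dixon's test at 95%, which chance alone does in about 1 in 20 groups. Levels are in CPM. Kcnip2, a calcium-binding subunit of A-type channels, had 1.66 in ROS+ replicate 1, beside 6.18 to 7.63 in the other ROS+ libraries, and 1.52 in ROS+++ replicate 2, beside 0.0476 to 0.0955. Kcnd3, an A-type pore, had 65.9 in ROS+ replicate 1, beside 76.1 to 79.7. Kcng1, a silent subunit, had 3.24 in ROS+ replicate 4, beside 0 to 0.281, and Kcnj12, a strong inward rectifier, had 1.22 in ROS+ replicate 5, beside 0 to 0.198. Kcnk10, a stretch-activated leak channel, had 8.74 in ROS+ replicate 2, beside 19.9 to 25.7. In ROS++ replicate 1, Kcnh8 had 5.87, beside 16.7 to 20.7 in the other ROS++ libraries, and Kcnu1 had 0.314, beside 5.2 to 6.71. Kcnj11, the pore of channels closed by ATP, had 0.81 in ROS++ replicate 3, beside 0 to 0.107.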

How the results depend on the processing

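Over 24 alternatives, 2000 of 2085 changes of the named genes kept their direction and their side of the threshold, 41 became called, 26 lost their call and 18 turned their direction, none of which was called. After turning, each of these changes was smaller than its standard error. Not all were near 0 in the main fit, where Kcnb2 changed by 0.39 and Kcnq1ot1 by -0.405 in ROS+++ against ROS++. Kcnd2 in ROS++ against ROS+ came to 0.0006766 with TMM factors, and Kcnq1ot1 in ROS+++ against ROS++ to 0.009953 with relative log expression factors. Without 1 library, changes in ROS++ against ROS+ spanned -0.153 to 0.154 for Kcna6, -0.194 to 0.105 for Kcnd2 and -0.112 to 0.214 for Kcnip3, and changes in ROS+++ against ROS++ spanned -0.198 to 0.992 for Kcnb2 and -0.2103 to 0.00373 for Kcnj11. Leaving out 1 library gave 4 to 7 members higher and 8 to 11 lower in ROS++ against ROS+, 6 higher and 37 to 41 lower in ROS+++ against ROS+, 3 to 5 higher and 20 to 29 lower in ROS+++ against ROS++, and 41 to 47 called by the F-test. On the deposited log2 scale 2 members, beside 4, were higher in ROS+++ against ROS++. Of 89 called changes, 33 were over 1.5 times larger on the deposited log2 scale and 36 in limma-voom, where low genes are not damped by the pseudocount. A block of library sets, formed from neighbouring library numbers, gave 7 members higher and 11 lower in ROS++ against ROS+, 6 and 41 in ROS+++ against ROS+, and 4 and 29 in ROS+++ against ROS++. Deviations of libraries of a set correlated at -0.022 to 0.231, mostly above 0, and those of different sets at -0.150 to 0.161. No label names the sets as a pairing, so the main fit holds no block. Whether libraries of a set share an origin was not tested. Levels near 3 reads, as for Kcnj11 in ROS++ and ROS+++, limit what can be said of genes that were low in a class.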

Other observations

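Genes that move potassium by other routes also differed between the classes. Of the 11 genes of the sodium-potassium pump, which pumps potassium into the cell, 4 were higher and 3 lower in ROS+++ against ROS+, 5 were higher and 1 lower in ROS++ against ROS+, and 4 were higher and 3 lower in ROS+++ against ROS++. Atp1b2, a glial beta subunit, rose by 2.55 ± 0.19 (adjusted p = 2.19e-08) in ROS++ against ROS+. Of the small regulators of the pump, Fxyd1 rose by 4.39 ± 0.30 (adjusted p = 5.96e-09) in ROS++ and rose by 5.60 ± 0.32 (adjusted p = 1.27e-10) in ROS+++, both against ROS+, and Fxyd5 rose by 1.72 ± 0.45 (adjusted p = 0.00576) in ROS+++ against ROS++. Fxyd6, a regulator known from neurons, averaged 1020.7 ± 64.3 CPM in ROS+ (SD, n = 5), 450.1 ± 131 CPM in ROS++ (SD, n = 5) and 27.5 ± 19.1 CPM in ROS+++ libraries (SD, n = 4), and fell by 1.23 ± 0.34 (adjusted p = 0.0129) in ROS++ and fell by 5.42 ± 0.36 (adjusted p = 9.84e-09) in ROS+++, both against ROS+.

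Of 5 listed genes for cotransport of potassium and chloride, 2 were higher and 1 lower in ROS+++ against ROS+, 2 were higher and 0 lower in ROS++ against ROS+, and 2 were higher and 0 lower in ROS+++ against ROS++. Slc12a2, which brings sodium, potassium and chloride into the cell, averaged 70.7 ± 18.9 CPM in ROS+ (SD, n = 5), 222 ± 88.2 CPM in ROS++ (SD, n = 5) and 447 ± 49.3 CPM in ROS+++ libraries (SD, n = 4), and rose by 1.57 ± 0.23 (adjusted p = 5.64e-05) in ROS++ and rose by 2.67 ± 0.25 (adjusted p = 6.16e-08) in ROS+++, both against ROS+. Slc12a4, an exporter of potassium and chloride found in most cells, rose by 1.30 ± 0.25 (adjusted p = 0.000213) in ROS+++ against ROS+, where Slc12a5, the exporter of mature neurons, fell by 1.14 ± 0.40 (adjusted p = 0.0194). The part of the mural and neuronal cell types in these changes was not tested.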
